A study of Canis lupus familiaris with 42 samples.

Results

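The genes described here are NRF2 targets and the metallothionein MT1E, a group of 9 oxidative stress genes listed by name (HMOX1, TXNRD1, NQO1, GCLM, GCLC, SLC7A11, SRXN1, TXN and MT1E). Of these, 8 had a probe set annotated with their symbol alone, out of 15115 genes that could be named on the array. SRXN1 was not analysed here. Each gene was read at its probe set with the highest mean level over all 42 arrays, and its other probe sets served as a check, 17 probe sets in all. The arrays came from spontaneous sarcomas of pet dogs, total RNA from 21 tumours sampled before any treatment and again after the first hyperthermia, a local heating given alongside radiotherapy. The labels describe the first sample as having no treatment and the second as having hyperthermia. They do not say how long after heating the second sample was taken, whether radiation had already been given, or how old the dogs were, and no tumour was sampled again without treatment. Tumours are numbered 1 to 21 as names only. P-values for a change between paired samples reflect only how far that change varies from tumour to tumour.

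NRF2 (gene NFE2L2) is a transcription factor that KEAP1 marks for degradation in resting cells. Oxidants and electrophiles modify KEAP1, after which NRF2 accumulates and, together with small MAF proteins, binds antioxidant response elements, from which the repressor BACH1 can keep it away at some genes. Its targets supply glutathione (SLC7A11, GCLC, GCLM), thioredoxin and its reductase (TXN, TXNRD1), quinone reduction (NQO1) and haem breakdown (HMOX1). Several of them answer to other factors too, HMOX1 to heat shock factor and SLC7A11 to the amino acid stress factor ATF4. Metallothioneins such as MT1E are small cysteine-rich proteins that bind zinc and copper. They are induced through the metal-sensing factor MTF1 and by glucocorticoids.

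Values are log2 levels after RMA, so a difference of 1 is a 2-fold change, and array medians ran from 5.20 to 5.31. A gene was called changed when its adjusted p in limma, fitted over all 42924 probe sets with the tumour as a block, was under 0.05. By the level of bacterial spike-in RNA the arrays fell into a high-spike set of 9 tumours and a low-spike set of 12 tumours, with both arrays of a tumour always in the same set. No label names these sets. Mean spike-in levels ran from 6.89 to 7.89 in the first, and from 3.37 to 4.62 in the second. Tumours 13 to 17 made up the upper end of the second set (3.75 or more) and may be a further division, since tumours 1 to 7 all lay at 3.52 or less. The 3′ to 5′ contrast of control genes, a sign of RNA quality, rose in 8 of 9 high-spike tumours (mean change 0.38) and in 5 of 12 low-spike tumours (mean change -0.05). Mesenchymal markers such as vimentin and collagens were high on every array, with a list mean from 11.34 to 12.48. Tumour 15 stood apart, since its keratinocyte markers had a mean level of 10.72 before and 10.41 after treatment, against a median of 4.11 and 4.13 over tumours. Those markers also moved in tumour 2 (from 3.96 to 6.27) and tumour 13 (from 6.08 to 4.28).

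Of the 8 measured genes, 5 rose, 0 fell and 3 did not pass. The 5 were MT1E, NQO1, TXNRD1, TXN and HMOX1. Over all named genes, each read at 1 probe set, 7.15% were called, 4.02% higher and 3.13% lower. Over all probe sets 5.96% were called, 2.97% higher and 2.99% lower. The median change of the 8 genes was 0.51, against 0.01 over all named genes. The genes were listed with earlier results of these data known, so these figures describe the list and do not test it. The rises came to between 1.33-fold and 2.55-fold. Without tumour 15 the count was also 5. Without tumours 13 and 15, which had the lowest array weights in an earlier analysis of these data, it was 6, an alternative added after seeing the data. In bulk tissue, more cells of a type that expresses a gene and more RNA per cell cannot be told apart.

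**Figure D1:**
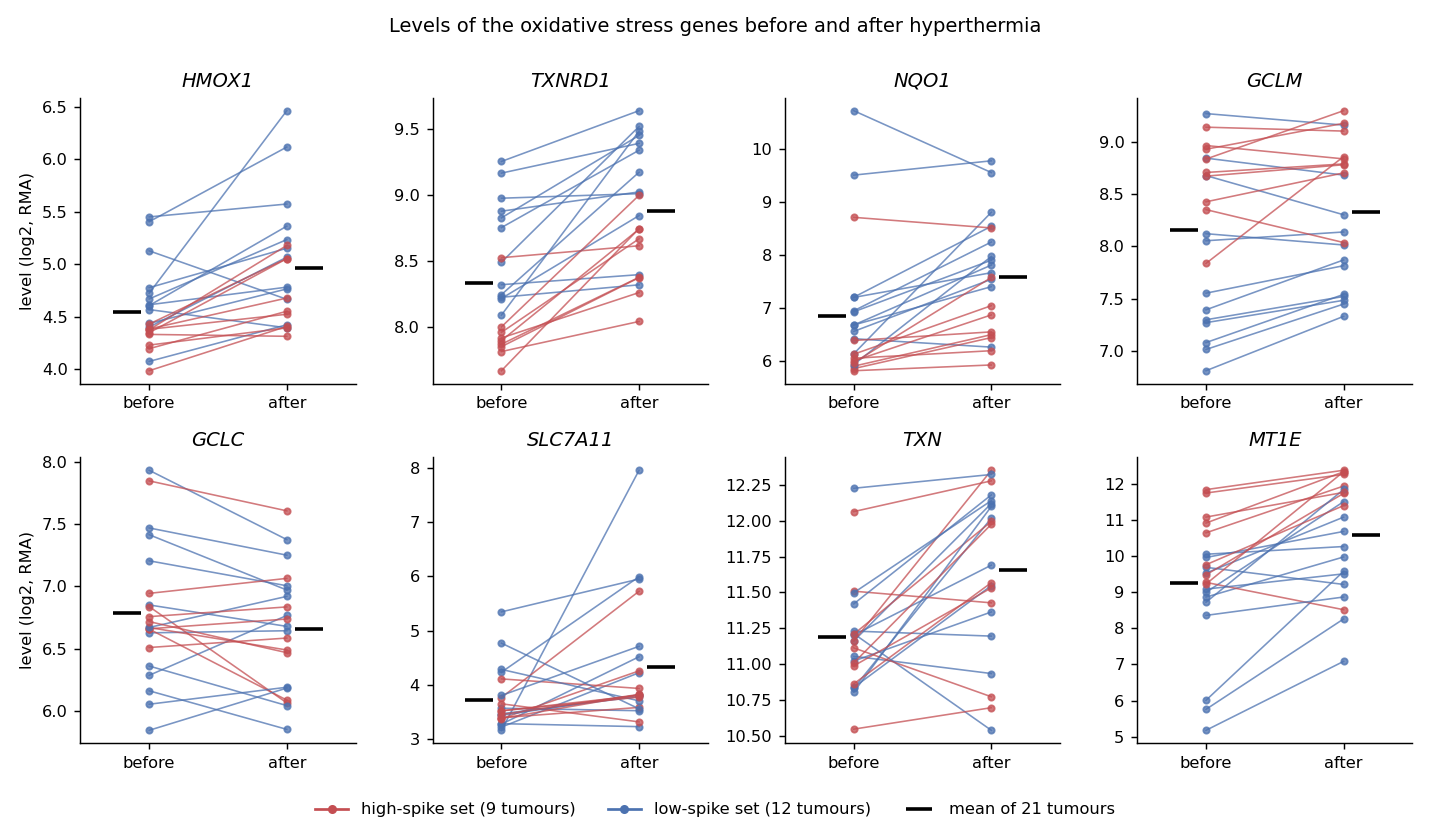
Log2 level (vertical axis) of each of the 8 measured genes before and after hyperthermia, 1 line per tumour, coloured by spike-in set, with black bars for the mean of 21 tumours. All 21 TXNRD1 lines go up, 19 MT1E lines go up, and the GCLC lines go both ways (9 up, 12 down).

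Both thioredoxin genes of the group rose, and the reductase did so in every tumour at the probe set that stood for it. TXNRD1, the cytosolic thioredoxin reductase that restores oxidised thioredoxin with NADPH, ran from 7.67 through a median of 8.22 to 9.26 before treatment and from 8.04 through 8.84 to 9.64 after it. The groups overlapped, and 6 tumours lay above the highest level before treatment. TXNRD1 was higher in 21 of 21 tumours, which held for only 7 of the 15115 named genes. Its change was 0.55 ± 0.08 (SE, n = 21), or 1.46-fold (limma adjusted p = 0.000451), and ranged from 0.03 in tumour 14 to 1.40 in tumour 3. Of its 4 other probe sets, 2 were called higher as well, with changes of 0.53 (20 of 21 tumours higher) and 0.42 (17 of 21). The remaining ones changed by 0.22 (adjusted p = 0.0685, 14 tumours higher) and 0.05 (13 tumours higher). The last of them lay at a mean level of 2.59, near the bottom of the scale.

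TXN, the small disulphide-reducing protein that TXNRD1 serves, ran from 10.55 through 11.16 to 12.23 before and from 10.54 through 11.69 to 12.35 after treatment. The ranges overlapped almost fully. TXN was higher in 16 of 21 tumours, with a change of 0.47 ± 0.11 or 1.38-fold (limma adjusted p = 0.0123). The largest fall was -0.67 in tumour 6 and the largest rise 1.29 in tumour 16. The second TXN probe set changed by 0.49 ± 0.13 and was called too (adjusted p = 0.0223).

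NQO1, which reduces quinones by transferring electron pairs, varied most between tumours before treatment among the genes of this group other than MT1E. Its level ran from 5.82 through 6.42 to 10.72 before and from 5.93 through 7.58 to 9.77 after treatment. Tumours 15 and 4 started highest, and no tumour ended above the highest starting level. NQO1 was higher in 18 of 21 tumours, by 0.73 ± 0.17 or 1.66-fold (limma adjusted p = 0.0107). The change was at least 2-fold upward in 6 tumours, reaching 2.66 in tumour 3, and downward in tumour 15 alone (-1.16). Without tumour 15 it came to 0.82 (adjusted p = 0.00174). The 2 other NQO1 probe sets were not called. The brighter of them changed by 0.39 (adjusted p = 0.0898, 18 tumours higher). The dimmer one, at a mean level of 3.35, changed by 0.04.

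HMOX1, the inducible haem oxygenase that splits haem into biliverdin, iron and carbon monoxide, lay at a low level. It ran from 3.98 through 4.43 to 5.45 before and from 4.31 through 4.78 to 6.47 after treatment, at the only probe set it had. Its mean level of 4.75 was below the median of all probe sets, 5.28. HMOX1 was higher in 18 of 21 tumours, by 0.41 ± 0.09 or 1.33-fold (limma adjusted p = 0.00884). Tumour 15 rose most, by 1.74, and the next largest rise was 0.80 in tumour 20. Tumours 1, 9 and 16 were lower, tumour 16 by -0.46. Without tumour 15 the change was 0.35 (adjusted p = 0.00473).

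HMOX1 is abundant in macrophages that clear red cells, so macrophage markers were set beside it. Of 13 macrophage markers measured, 3 rose, 1 fell and 9 did not pass, so the list did not move one way. The scavenger receptor MARCO rose by 1.86, the Fc receptor FCGR1A by 0.81 and MSR1 by 0.52, while the growth factor receptor CSF1R changed by -0.49. Of those that did not pass, C1QB (-0.53), MRC1 (-0.43), C1QA (-0.43) and C1QC (-0.42) were lower and CD163 (0.54), TYROBP (0.33), CD14 (0.29), AIF1 (0.20) and CD68 (0.19) higher. The mean level of all 13, which averages over both directions, ran from 6.79 to 9.43 before and from 7.11 to 9.38 after treatment, with a change of 0.19 ± 0.55 (SD, n = 21). With that mean as a covariate, an alternative added after seeing the data, HMOX1 changed by 0.38 ± 0.10 (limma adjusted p = 0.0195) and the other 4 called genes were called as well. Of 7 neutrophil markers 3 rose (S100A9 by 1.08, LCN2 by 0.82 and TREM1 by 0.61). S100A8 (0.67), CSF3R (0.09), MPO (-0.01) and ELANE (-0.06) did not pass. LCN2, CSF3R, MPO and ELANE lay below the median level of all probe sets. Of 8 T and NK cell markers 5 fell, GZMA and CD3D furthest (-0.61 and -0.57). Of these 8 markers 6, GZMA and CD3D among them, lay below that median level. The neutrophil mean ran from 4.72 to 8.18 before and from 4.61 to 7.73 after treatment. It was higher in 16 of 21 tumours, with a change of 0.46 ± 0.60 (SD, n = 21). The mean of T and NK cell markers ran from 4.60 to 6.28 before and from 4.15 to 5.41 after treatment. It was higher in 0 of 21 tumours, with a change of -0.33 ± 0.34 (SD, n = 21). The part of neutrophils and of T and NK cells in the changes was not tested. The 3 red cell markers measured did not pass, and their median change was -0.03.

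MT1E showed the widest swing among the called genes. Its level ran from 5.18 in tumour 4 through a median of 9.48 to 11.83 in tumour 18 before treatment, and from 7.09 through 11.07 to 12.37 in the same tumours after it. Tumours 1, 4 and 17 started far below the others, at 6.01, 5.18 and 5.76, and rose by 3.56, 1.91 and 2.50. MT1E was higher in 19 of 21 tumours, by 1.35 ± 0.23 or 2.55-fold (limma adjusted p = 0.00188), and at least 2-fold higher in 12. Only tumours 5 (-0.47) and 9 (-0.75) were lower. MT1E had 1 probe set, of a kind that can bind related transcripts, so other metallothioneins may add to its signal. MT2A, a second metallothionein, rose by 0.78 ± 0.22 in 17 of 21 tumours (limma adjusted p = 0.0379). MT2A no longer passed when tumour 2, 3, 4, 7, 10, 11, 12, 16, 17, 20 or 21 was left out, 11 of 21 fits in all (adjusted p up to 0.0709).

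The glutathione genes of the group did not pass. SLC7A11, the cystine importer that feeds glutathione synthesis, lay near the bottom of the scale, from 3.17 through 3.53 to 5.35 before and from 3.23 through 3.82 to 7.95 after treatment at its only probe set. The upper end belonged to tumour 1, where SLC7A11 went from 3.17, the lowest start of all, to 7.95, the highest end. Its change was 0.62 ± 0.24 (limma adjusted p = 0.136), with 15 of 21 tumours higher and a 95% interval of the mean change from 0.07 to 1.17. It was at least 2-fold higher in 5 tumours (1, 3, 4, 7 and 10) and at least 2-fold lower in tumour 15. Without tumour 1 the change was 0.41 (adjusted p = 0.136), without tumour 15 it was 0.71 (adjusted p = 0.0673), and without tumours 13 and 15 it was 0.78 and passed (adjusted p = 0.0420).

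GCLC and GCLM encode the catalytic and the modifier subunit of glutamate-cysteine ligase, which makes the first and limiting step of glutathione synthesis. GCLM ran from 6.81 through 8.35 to 9.27 before and from 7.33 through 8.30 to 9.29 after treatment. Its group medians hardly differed, while its median change within tumours was 0.21. Its change was 0.17 ± 0.07 (limma adjusted p = 0.152), with 14 of 21 tumours higher. GCLC ran from 5.85 through 6.67 to 7.93 before and from 5.86 through 6.68 to 7.61 after treatment. Its change was -0.13 ± 0.07 (adjusted p = 0.317), with 12 of 21 tumours lower and a median change within tumours of -0.18. The 95% intervals of the mean change were 0.02 to 0.32 for GCLM and -0.27 to 0.02 for GCLC. A rise of GCLC as large as that of TXNRD1 therefore lay outside its interval. The second probe set of each gene changed by 0.16 and -0.15, and neither was called.

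**Figure D2:**
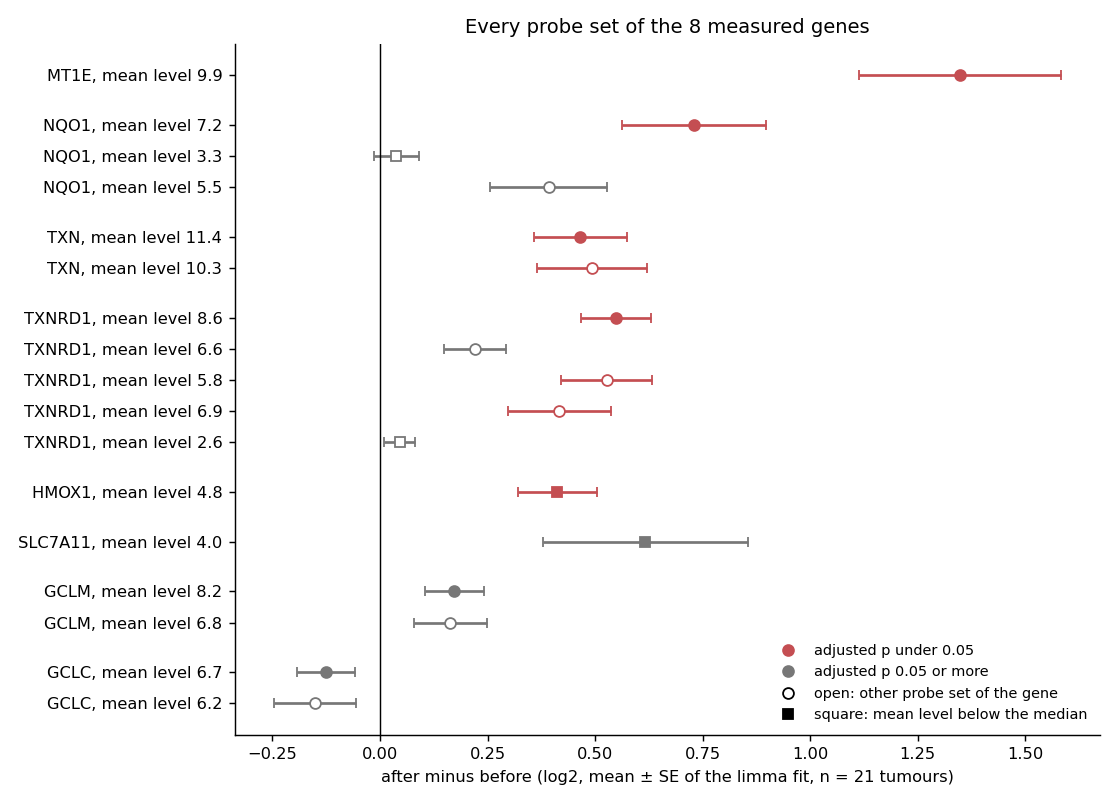
Mean change after minus before (log2, horizontal axis, bars for the SE, n = 21 tumours) of all 17 probe sets of the 8 genes, filled for the probe set that stood for the gene, red where the adjusted p was under 0.05 and square where the mean level was below the median of all probe sets. Both TXN probe sets and 3 of 5 TXNRD1 probe sets are red, and the dimmest TXNRD1 and NQO1 probe sets lie close to 0.

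The tumours differed in how many of the genes went up. All 8 were higher in 4 tumours (12, 14, 17 and 21). In 7 tumours 7 were higher, in 4 tumours 6, in 3 tumours 5 and in 2 tumours 4. Tumour 5 had 2 higher and 6 lower. Of the 5 called genes, all were higher in 12 tumours, 4 in 7 tumours and 2 in tumours 5 and 9. The SD of the change over tumours was 1.18 for MT1E, 1.20 for SLC7A11 and 0.83 for NQO1, against 0.39 for TXNRD1 and a median of 0.28 over all named genes.

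**Figure D3:**
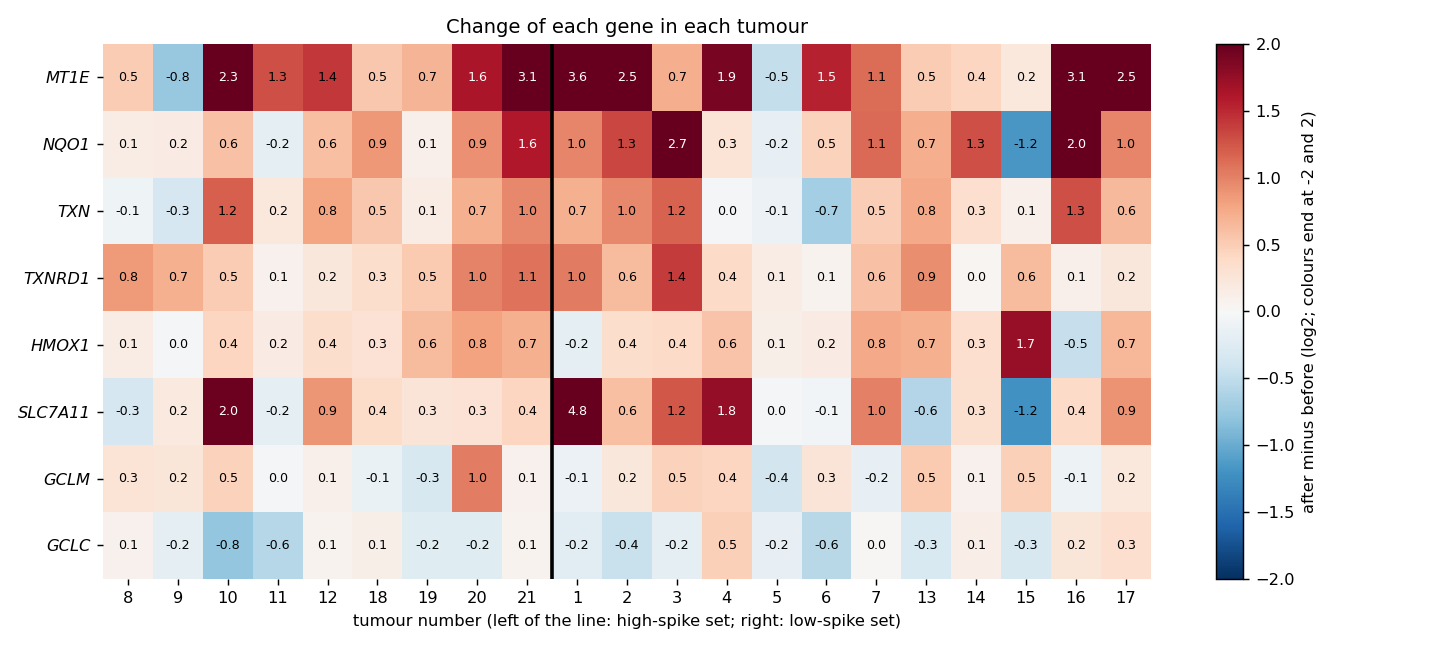
Change after minus before (log2) of each gene (rows) in each tumour (columns, high-spike set left of the line), red for higher and blue for lower, with colours ending at -2 and 2. The TXNRD1 row holds no blue cell, tumour 15 pairs the largest HMOX1 rise (1.74) with the lowest NQO1 and SLC7A11 changes (-1.16 and -1.21), and tumour 1 holds the largest SLC7A11 and MT1E rises (4.79 and 3.56).

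The mean changes of the 5 genes pointed upward in both spike-in sets. In the high-spike set the mean changes were 1.19 for MT1E, 0.53 for NQO1, 0.59 for TXNRD1, 0.46 for TXN and 0.39 for HMOX1. In the low-spike set they were 1.47, 0.88, 0.51, 0.47 and 0.43 in the same order. Among low-spike tumours, the 5 with the higher spike-in level (13 to 17) had mean changes of 1.35, 0.77, 0.38, 0.63 and 0.60, and the other 7 had 1.55, 0.96, 0.61, 0.36 and 0.31. SLC7A11 was further apart, with -0.04 ± 0.84 (SD, n = 5) and 1.33 ± 1.66 (SD, n = 7), a difference that was not tested. Within the sets fewer passed. Limma called TXNRD1 (adjusted p = 0.0132) and HMOX1 (adjusted p = 0.0348) among the 9 high-spike tumours, where 1.19% of probe sets were called higher. It called 0 of the 8 genes among the 12 low-spike tumours, where 0 of 42924 probe sets were called and 5 of the 8 genes had an unadjusted p under 0.05. The difference of the change between the sets did not pass for any of the 8 genes (limma interaction, adjusted p from 0.874 to 0.996), and 1 of 42924 probe sets passed (0.00233%). The 5 genes kept their calls in a fit with the 3′ to 5′ contrast added, with changes of 1.21, 0.73, 0.58, 0.43 and 0.43 for MT1E, NQO1, TXNRD1, TXN and HMOX1.

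Levels before treatment differed between the spike-in sets for some of the genes. MT1E had a mean of 10.43 ± 1.03 (SD, n = 9) in the high-spike set and 8.35 ± 1.71 (SD, n = 12) in the low-spike set. TXNRD1 went the other way, with 7.94 ± 0.24 and 8.62 ± 0.41. Of the high-spike set only tumour 11, at 8.52, lay above the lowest low-spike TXNRD1 level of 8.09. GCLM was higher in the high-spike set, with 8.65 ± 0.40 and 7.78 ± 0.80. HMOX1 (4.29 ± 0.14 and 4.74 ± 0.41) and NQO1 (6.32 ± 0.91 and 7.24 ± 1.42) were lower there. These differences were not tested. Whether they stem from the arrays or from the tumours cannot be told apart.

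Relations between the genes over tumours were tested for all 28 pairs, once for the changes and once for the levels before treatment, with p-values adjusted within each set of 28. For the changes 2 pairs passed. NQO1 and TXN moved together (Pearson's r = 0.69, permutation test, p = 0.000630, adjusted p = 0.0176, and Spearman's rho = 0.72, permutation adjusted p = 0.0101, n = 21). The relation held without tumours 3 and 15 (r = 0.70), and r was 0.69 in the high-spike and 0.72 in the low-spike set. These genes were also related before treatment (r = 0.73, permutation adjusted p = 0.0179, rho = 0.59, permutation adjusted p = 0.0428). There r was 0.81 in the high-spike and 0.78 in the low-spike set, and 0.71 without tumours 4 and 15. The high-spike value rested on tumour 11, where both genes were highest in that set, and without it r was 0.24 over 8 tumours.

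SLC7A11 and MT1E were the second pair whose changes were related (r = 0.59, permutation adjusted p = 0.0417, rho = 0.64, permutation adjusted p = 0.0314, n = 21), with r = 0.45 in the high-spike and 0.65 in the low-spike set. Without tumours 1 and 10 r was 0.40 (permutation test, p = 0.0887), with the same sign but no longer past the threshold. TXN and MT1E passed by rank alone (r = 0.56, permutation adjusted p = 0.0752, rho = 0.60, permutation adjusted p = 0.0459), as did NQO1 and SLC7A11 (r = 0.35, permutation adjusted p = 0.359, rho = 0.58, permutation adjusted p = 0.0459). Without the 2 tumours farthest out, r was 0.60 for TXN and MT1E and 0.18 for NQO1 and SLC7A11. Within the high-spike and low-spike sets it was 0.87 and 0.40 for the first pair, and 0.32 and 0.33 for the second. The change of HMOX1 was related to none of the other 7 genes at an adjusted p under 0.05. With NQO1 its r was -0.36 over all tumours, 0.64 in the high-spike set and -0.59 in the low-spike set, and 0.28 without tumours 15 and 16.

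Before treatment TXNRD1 and MT1E ran opposite to each other (r = -0.67, permutation adjusted p = 0.0179, rho = -0.62, permutation adjusted p = 0.0428, n = 21). The direction held in the low-spike set (r = -0.57) and not in the high-spike set (r = 0.13). Without tumours 4 and 17 it was -0.42 (permutation test, p = 0.0735). The permutations, here and for every pair, ran over all tumours and took no account of the spike-in sets. In the high-spike set the mean level before treatment was higher for MT1E and lower for TXNRD1 and NQO1. Whether relations of TXNRD1 with these genes stem from the sets was not tested. By rank alone TXNRD1 and NQO1 were related (rho = 0.78, permutation adjusted p = 0.00168, r = 0.46, permutation adjusted p = 0.136), with r = 0.94 in the high-spike and 0.14 in the low-spike set, and r = 0.34 without tumours 4 and 17. Without tumour 11 the high-spike value was 0.52 over 8 tumours. So were GCLC and TXN, in opposite directions (rho = -0.58, permutation adjusted p = 0.0428, r = -0.45, permutation adjusted p = 0.155). For that pair r was -0.61 and -0.40 within the sets and -0.42 without tumours 6 and 19.

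**Figure D4:**
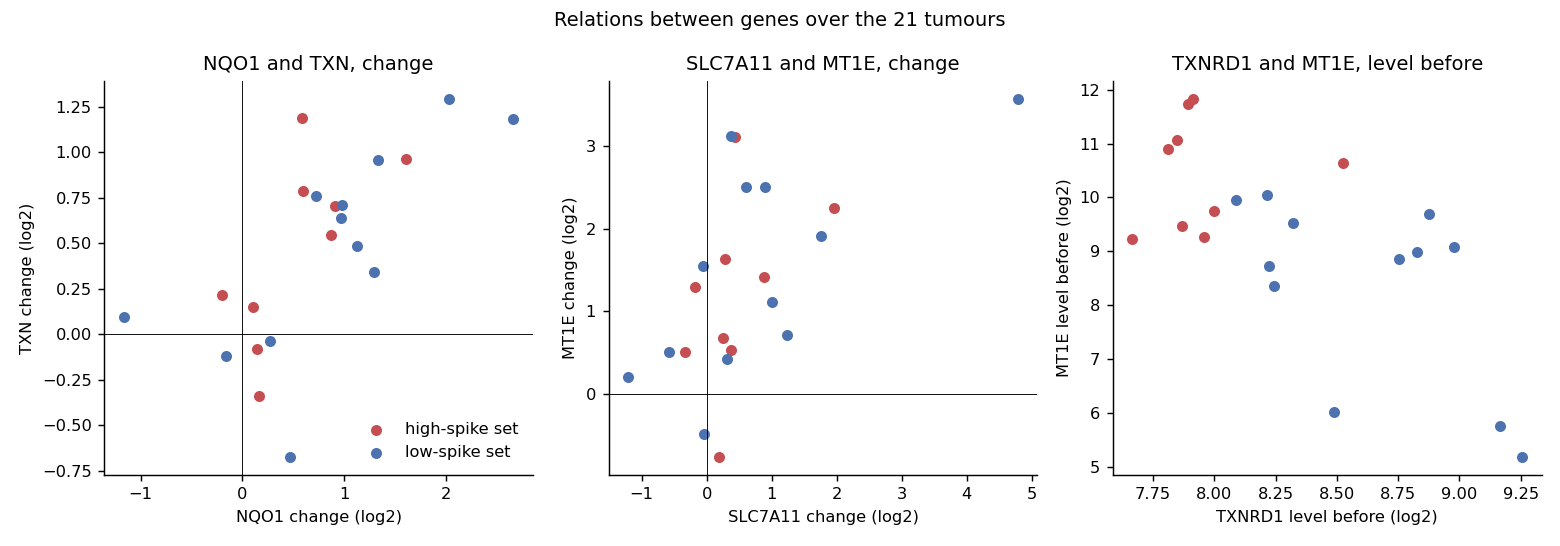
Each point is 1 of 21 tumours, coloured by spike-in set, for the change of NQO1 against TXN (left), the change of SLC7A11 against MT1E (middle) and the level before treatment of TXNRD1 against MT1E (right), all log2. NQO1 and TXN rise together in both sets (r = 0.69), while in the right panel the high-spike tumours lie at the upper left and show no downward trend of their own (r = 0.13).

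For each gene the named genes with the most similar change over the 21 tumours were sought among 9178 genes above the median level, as a description. All share the same arrays. For SLC7A11 they were TRIB3 (r = 0.87), SLC25A33 (r = 0.84) and DDIT3 (r = 0.83). TRIB3 and DDIT3 are known targets of ATF4, and without tumour 1 their r was 0.69 and 0.68. For NQO1 they were GLIPR1 (r = 0.86), the glycolytic regulator PFKFB3 (r = 0.85) and CYB5R4 (r = 0.83). For TXN they were VMA21 (r = 0.91), TMEM165 (r = 0.91) and SLC35A3 (r = 0.89), whose products work in the secretory pathway, and without tumour 6 their r ran from 0.88 to 0.92. For MT1E they were the nucleolar genes DDX21 (r = 0.84), TAF1D (r = 0.84) and PUM3 (r = 0.83). For HMOX1 they were VPS28 (r = 0.82), LOC491922 (r = 0.81) and MPC1 (r = 0.81), with 0.12, 0.45 and 0.54 within the high-spike set. For TXNRD1 they were ARMC8, LRRC46 and ROCK1 (r from 0.77 to 0.78). For GCLM they were PAAF1 (r = 0.84), COMMD2 (r = 0.74) and MRPL20 (r = 0.69), and for GCLC they were SERPINF1 (r = 0.73), SLC1A3 (r = 0.68) and LOC480601 (r = 0.64).

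Of 8 pathway regulators measured, 2 rose, 1 fell and 5 did not pass. BACH1, the haem-sensing repressor of HMOX1, rose from a mean of 4.91 to 5.47, by 0.56 ± 0.12 in 18 of 21 tumours (limma adjusted p = 0.00773). It had 1 probe set, whose mean level of 5.19 was below the median of all probe sets, 5.28. KEAP1, the adaptor that targets NRF2, rose by 0.23 ± 0.06 in 16 tumours (adjusted p = 0.0228). NFE2L2 itself fell by 0.18 on the log2 scale, with a change of -0.18 ± 0.05 and 3 of 21 tumours higher (adjusted p = 0.0181). Its other probe sets changed by -0.31 and -0.03 and were not called. NFE2L1 (0.14), SQSTM1 (0.15), MAFG (0.07), CUL3 (0.06) and MAFF (0.02) did not pass, although the second SQSTM1 probe set did (0.26, adjusted p = 0.0323). These are RNA levels, and NRF2 is controlled largely at the protein.

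Of 97 other genes listed for redox, haem, metal and amino acid stress, 79 were measured. Of these 14 rose (17.7%), 1 fell (1.27%, NFE2L2) and 64 did not pass, with a median change of 0.12. Over all named genes 4.02% were called higher and 3.13% lower. The lists were chosen with earlier results of these data known, so these shares do not test them. Without tumour 10 the count of rises was 9, while probe sets called higher went from 1273 to 896. When the 3′ to 5′ contrast was added to the fit the count of rises was 8, with 909 probe sets called higher. GSS, PGD, MT2A, SOD2, ASNS and SLC7A5 were then no longer called. In that fit they changed by 0.23, 0.15, 0.66, 0.77, 1.002 and 0.24, against 0.22, 0.17, 0.78, 0.87, 1.002 and 0.25 without the contrast (limma adjusted p from 0.0558 to 0.0936).

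Haem and iron genes contributed 2 rises among 14 measured. FTL, the light chain of the iron store ferritin, rose by 0.42 ± 0.07 in 18 tumours (limma adjusted p = 0.00118). BLVRB, a biliverdin and flavin reductase, rose by 0.62 ± 0.14 in 17 tumours (adjusted p = 0.00925). The 2 other BLVRB probe sets, both below the median level, were not called. FTH1, the ferritin heavy chain, changed by 0.01, the constitutive oxygenase HMOX2 by 0.14 and the haem carrier HPX by 0.20, and none of them passed. The median change of the list was 0.01.

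Of 10 thioredoxin and peroxiredoxin genes outside the group, 2 rose. PRDX6, a peroxidase that also repairs lipids, rose by 0.48 ± 0.11 in 17 tumours (limma adjusted p = 0.0132) and PRDX5 by 0.17 ± 0.04 in 19 tumours (adjusted p = 0.0175), and both probe sets of each were called. PRDX1 (0.08) and the inhibitor TXNIP (-0.20, adjusted p = 0.457) did not pass. Of 15 other glutathione genes only glutathione synthetase GSS rose, by 0.22 ± 0.06 (adjusted p = 0.0431), and it no longer passed in 13 fits, those without tumour 3, 6, 8, 9, 10, 12, 13, 14, 15, 18, 19, 20 or 21. GLRX2 (0.24, adjusted p = 0.0549) and GSR, which recycles glutathione (0.24, adjusted p = 0.116), did not pass.

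Among 11 genes of NADPH supply and other NRF2 targets, PGD of the pentose phosphate path rose by 0.17 ± 0.04 in 20 tumours (limma adjusted p = 0.0242), at 1 of its 3 probe sets. PIR changed by 0.51 ± 0.16 in 17 tumours and did not pass (adjusted p = 0.0584), although its second probe set did (0.56, adjusted p = 0.0374). Of 4 superoxide and catalase genes only SOD2, the mitochondrial dismutase and an NF-kB target, rose (0.87 ± 0.24, adjusted p = 0.0298). Its call was lost without tumour 1, 2, 3, 10, 12, 16 or 21, and its second probe set did not pass (0.76, adjusted p = 0.0723). SOD1 (0.03), SOD3 (0.003) and CAT (0.05) did not pass. Of 6 metallothionein and zinc genes only MT2A rose. MT4 (0.32, adjusted p = 0.588) and MTF1 (0.15, adjusted p = 0.178) did not. MT4 lay near the bottom of the scale, at 3.25 ± 0.10 (SD, n = 21) before and 3.57 ± 1.36 after treatment. It was higher in 12 of 21 tumours.

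Of 11 genes listed as ATF4 targets, a list that also holds ATF4 itself, 4 rose, and the median change was 0.25. ATF4 changed by 0.14 with 12 of 21 tumours higher and did not pass (limma adjusted p = 0.301). SESN2, a sestrin that restrains growth signalling, rose by 0.73 ± 0.13 (limma adjusted p = 0.00256) and ATF3 by 0.88 ± 0.22 (adjusted p = 0.0179). SESN2 and ATF3 each had 1 probe set, with a mean level below the median of all probe sets. Asparagine synthetase ASNS rose by 1.002 ± 0.29 (adjusted p = 0.0389) and the amino acid transporter SLC7A5 by 0.25 ± 0.07 (adjusted p = 0.0271). A second ASNS probe set passed (0.93, adjusted p = 0.0347) and the remaining one did not (0.64, adjusted p = 0.131). The call on ASNS was lost without tumour 1, 3, 10, 12, 16, 18, 20 or 21, and that on SLC7A5 without tumour 10 or 16. DDIT3, which encodes CHOP, changed by 0.55 and did not pass (adjusted p = 0.0642).

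**Figure D5:**
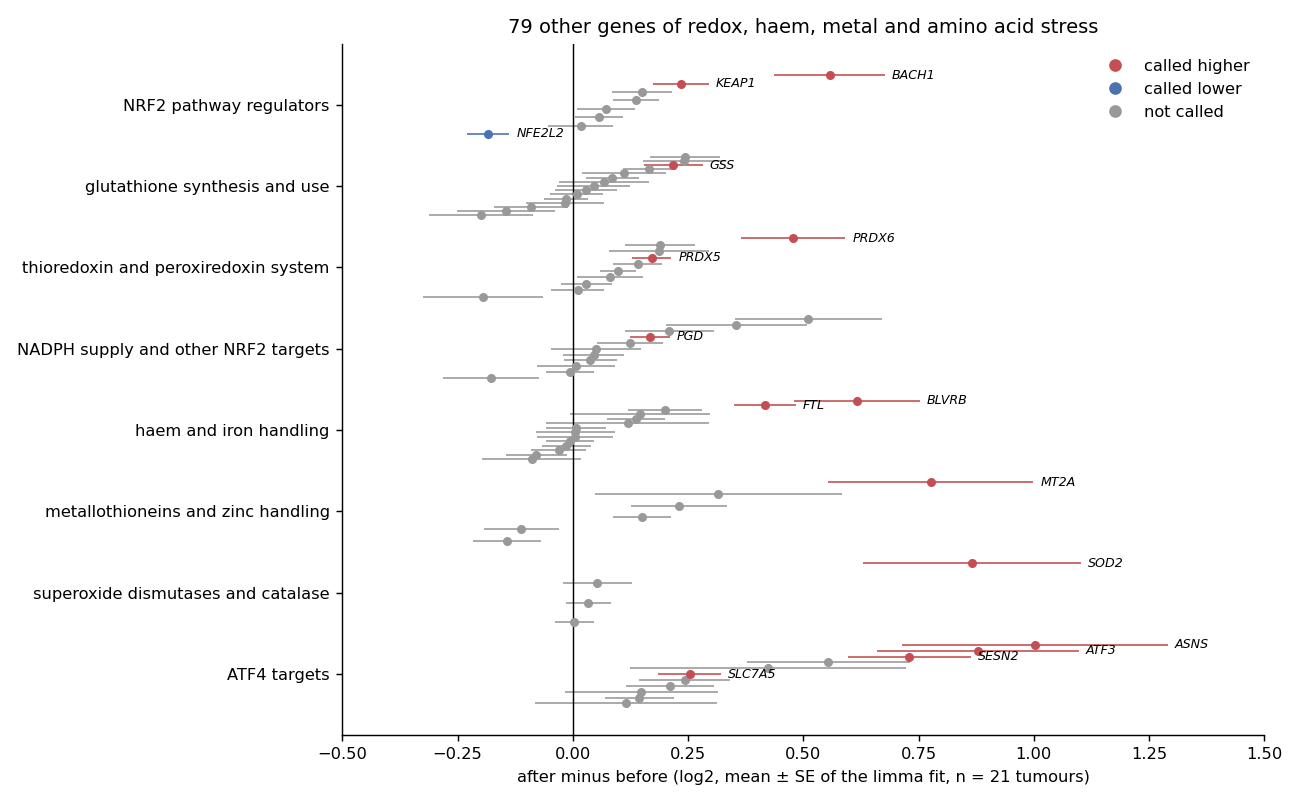
Mean change after minus before (log2, horizontal axis, bars for the SE, n = 21 tumours) of the 79 measured genes of the 8 wider lists, red where called higher, blue where called lower and grey where not called. The list of ATF4 targets, which also holds ATF4 itself, lies furthest to the right (median change 0.25). Over all lists 14 genes are called higher and NFE2L2 is the 1 called lower.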

How the data were processed

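Total RNA from 42 samples of 21 tumours was hybridised to Affymetrix canine arrays, biotin labelled per the labels. The deposited values are log2 levels from RMA in Affymetrix Expression Console, per the submitters' processing notes, and their version is not given in the sources used here. The table held 43035 rows, including 111 controls that entered no test. Of the 42924 others, 29254 had 1 symbol in the platform annotation, 439 several and 13231 none. The treatment label gave each array its group, and the code opening its title gave its tumour. All 21 pairs matched best when arrays were correlated after removal of the group means.

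Limma 3.58.1 (R 4.3.3, eBayes, two-sided, Benjamini-Hochberg over all probe sets) was fitted with the tumour as a block. On simulated data it recovered 50% of 50 probe sets changed by 0.25, 96% at 0.5, 98% at 1 and 100% at 2, with 7 false calls. The simulated spread was normal and independent for each probe set and tumour. It held no links between genes and no tumours that stood apart, so these figures need not hold for the real arrays. Relations used 100000 permutations, two-sided (Python 3.11.15, NumPy 2.4.6). Spike-in sets were split at a tumour mean of 5.75 over 36 poly-A control probe sets. Members and lists were chosen with earlier results of these data known. Alternatives were robust fitting, array weights, renormalisation, centring, a level filter, other probe sets, covariates, no block, each spike-in set and each tumour left out. Wider genes were named where called or with the largest change not called, all regulators were named, and other members of a list are examples. The number of arrays limits the precision.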

Additional observations from a re-analysis of the deposited data

How the results depend on the processing

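No called change turned its sign in any alternative. The 2 exceptions among the others were mean changes over the 5 low-spike tumours of higher spike-in level, with 0.02 for GCLC and -0.04 for SLC7A11. Leaving out 1 tumour at a time changed no call on them, with changes from 0.346 to 0.456 for HMOX1, 0.505 to 0.573 for TXNRD1, 0.633 to 0.824 for NQO1, 0.131 to 0.200 for GCLM, -0.156 to -0.0940 for GCLC, 0.408 to 0.708 for SLC7A11, 0.424 to 0.522 for TXN and 1.24 to 1.45 for MT1E. Wider genes called higher ran from 9 to 17, and probe sets called from 882 to 1587 higher and from 920 to 1730 lower. Calls needed the pairing. With no replicate block, HMOX1 (0.41), TXNRD1 (0.55), NQO1 (0.73), TXN (0.47) and MT1E (1.35) kept their changes by construction but none was called by limma, with 6 of 8 genes higher at an unadjusted p under 0.05. Wider genes called fell to 2 higher and 0 lower, and probe sets to 27 and 3. In the low-spike set alone 0 members, 0 wider genes in either direction and 0 probe sets in either direction were called (limma, against 5 members, 17 wider genes, and 2624 higher and 2365 lower probe sets at an unadjusted p under 0.05), with 0.43 for HMOX1, 0.51 for TXNRD1, 0.88 for NQO1, 0.47 for TXN and 1.47 for MT1E. In the high-spike set alone 2 members, 8 wider genes, 510 higher and 783 lower probe sets were called, and NQO1 (0.53), TXN (0.46) and MT1E (1.19) were not. These fits hold fewer tumours, 12 in the low-spike and 9 in the high-spike set, and the larger set gave fewer calls. The reason for this was not tested. Other probe sets that were not called changed by 0.22 and 0.0459 for TXNRD1 and by 0.0376 and 0.39 for NQO1. The 3′ to 5′ covariate left 8 wider genes and 909 probe sets called higher. With it the difference in HMOX1 change between the sets, -0.0408 at first and not called, became 0.0121. That difference went from -0.28 to -0.98 ± 0.48 (SE) for MT1E, from 0.08 to 0.25 for TXNRD1 and from -0.01 to -0.16 for TXN, and none was called (limma adjusted p = 0.9997). Without tumours 13 and 15 SLC7A11 passed (0.78), and 2 wider genes and 2203 probe sets were called lower. The cause was not tested. The relation of TXNRD1 and MT1E before treatment reversed in the high-spike set (0.126, and 0.145 without tumour 11). HMOX1 and SLC7A11 lay below the level filter and got no value there.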
